A study of Solanum lycopersicum with 18 samples.

Results

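This report describes 132 tomato leaf genes that were strongly lower after 1 h of heat stress (HS) in wild-type plants and in both hsfa1a knock-down transgenic lines, and that ended at a similar level in all 3 genotypes. They were taken from a table of 35821 genes, of which 15312 had at least 50 counts in at least 2 of the 18 libraries and were tested. The level of a gene was the log2 of its mean CPM (its count scaled to the library total) over 3 libraries plus a pseudocount of 1. Genes were chosen by this level: they were kept where it fell by at least 1.5 in each genotype and where the 1 h levels of both lines lay within 0.5 of the wild-type level. The heat responses and the 1 h differences from wild type of these genes are therefore selected values. They are described below, and counts of genes past a threshold in these comparisons restate the choice.

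The plants were cv. Moneymaker, 4 weeks old, and RNA came from the fourth leaf. The groups were line CS2 at 1 h and 0 h, line CS3 at 1 h and 0 h, and wild type (WT) at 1 h and 0 h, with 3 libraries each. Plants labelled 1 h were kept at 45 °C and plants labelled 0 h had stayed at 24 °C, so only 1 time after the start of HS was measured here. CS2 and CS3 carry a hairpin RNA interference construct against HSFA1a, the factor known as the master regulator of the tomato HS response. The lines are independent of each other, and the WT plants carry no construct.

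Libraries held between 1713285 and 3669618 counts. CPM values below are normalized with edgeR's TMM factors unless the rule is meant. The gene found at the place of HSFA1A by gene order, Solyc08g005170.3, ranged at 0 h from 60.8 to 71.2 CPM in CS2, from 66.0 to 88.4 CPM in CS3 and from 65.2 to 82.7 CPM in WT. At 1 h it ranged from 85.0 to 118.9 CPM in CS2, from 94.8 to 130.3 CPM in CS3 and from 60.5 to 76.4 CPM in WT. At 0 h the ranges of the targeted gene overlapped among genotypes, so a knock-down was not seen. At 1 h both lines lay above WT, against the knock-down label. The paper describes the construct as lowering HSFA1a expression in both lines. CS2 and CS3 below mean libraries that carry those labels. Hairpin reads and native reads of this gene cannot be told apart by counts. The 12 genes placed at light-harvesting and Rubisco small subunit genes, which mark green leaf tissue, summed to between 3465 and 6340 CPM in the 1 h libraries and to between 2803 and 3867 CPM in the 0 h libraries. The lowest heated sum was that of CS2 replicate 3 and the highest that of CS2 replicate 1. After heat, 11 of the 12 were higher in CS2, 11 in CS3 and 7 in WT (adjusted p under 0.05, edgeR). Of all 15312 tested genes, 4397, 4086 and 3701 were higher. The sum is therefore no fixed measure of tissue.

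A pair of libraries stood apart. CS2 replicate 3 at 1 h was the deepest of all and had the smallest share of counts on organelle genes among the 1 h libraries, 0.194% against 0.295% to 0.509% in the other 1 h libraries and 0.163% to 0.398% at 0 h. CS3 replicate 2 at 0 h had the highest value of the 9 unheated libraries for 28.4% of all tested genes and the lowest for 29.1%. Several medians and counts over the set that moved with either are also given without it.

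Plants exposed to HS make heat shock proteins under the control of heat stress transcription factors, while transcripts of many genes of growth, cell walls, defence and development decline. Genes of the set named below were placed at, among others, a receptor kinase, secreted proteases, wall hydrolases and a transcription factor of leaf form. These classes were picked out after values were seen and were not predicted beforehand. The table names genes by Solyc identifier alone. Names were assigned by comparing gene order and spacing with RefSeq's annotation (assembly SLM_r2.1), in which 75 of the 132 genes found a counterpart and 8 a gene with a name of its own. Sequences were not compared, so each name rests on position. The other genes are known here only by identifier.

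These 132 genes took up a much smaller part of the libraries after heat. In CS2 they received 0.131%, 0.146% and 0.169% of all counts at 1 h, against 0.646%, 0.607% and 0.598% at 0 h. In CS3 they received 0.138%, 0.136% and 0.131% at 1 h, against 0.640%, 0.655% and 0.578% at 0 h. In WT the shares were 0.137%, 0.128% and 0.154% at 1 h, against 0.577%, 0.611% and 0.612% at 0 h. Every heated library lay far below every unheated one, as the choice of genes by their fall largely fixed. The 3 genotypes overlapped at both times. The highest heated share was that of CS2 replicate 3. In whole leaves, fewer cells of a type and less RNA per cell cannot be told apart, and a share is relative to all other transcripts.

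**Figure D1:**
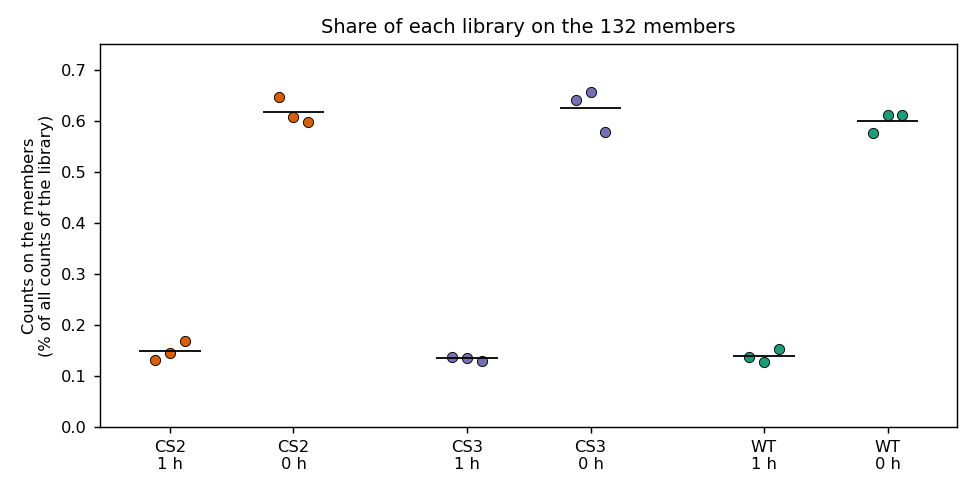
Share of all counts of a library that fell on the 132 genes, in percent, for each genotype at 1 h and 0 h. Points are the 3 libraries and lines their mean. For these genes, chosen for their fall, heated libraries lie between 0.128% and 0.169% and unheated ones between 0.577% and 0.655%.

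The response was of similar size in the 3 genotypes, which the rule largely fixed through the required fall and the limit on the 1 h levels. The median log2 fold change of 1 h over 0 h, from edgeR, was -1.92 in CS2, -2.09 in CS3 and -2.14 in WT, while the median over all tested genes was 0.00 in each. Without CS2 replicate 3 at 1 h the CS2 median was -2.14, and without CS3 replicate 2 at 0 h the CS3 median was -2.07. The genes between the lower and upper quartile lay between -2.41 and -1.67 in CS2, between -2.50 and -1.80 in CS3 and between -2.49 and -1.81 in WT. Scaling by library size alone shifted the median of all genes by -0.18 in CS2 and CS3 and by -0.13 in WT, and the medians of the 132 genes with it.

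As the rule fixed, nearly all of these genes were lower at an adjusted p under 0.05, with 131 in CS2, 131 in CS3 and 132 in WT, where the same held for 26.2%, 26.5% and 25.2% of all tested genes. The fall of 1.5 alone was met by 5.39% of tested genes in CS2, 5.96% in CS3 and 6.91% in WT, and 357 genes met it in all 3 genotypes. Of these 357 genes, 225 were left out because a line differed from WT at 1 h, so the 132 kept are 37.0% of them. Among the genes left out, CS2 was above WT by over 0.5 in 124 and below it in 32, and CS3 was above WT in 117 and below it in 58. A further 89 genes fell in the same way but had too few counts.

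**Figure D2:**
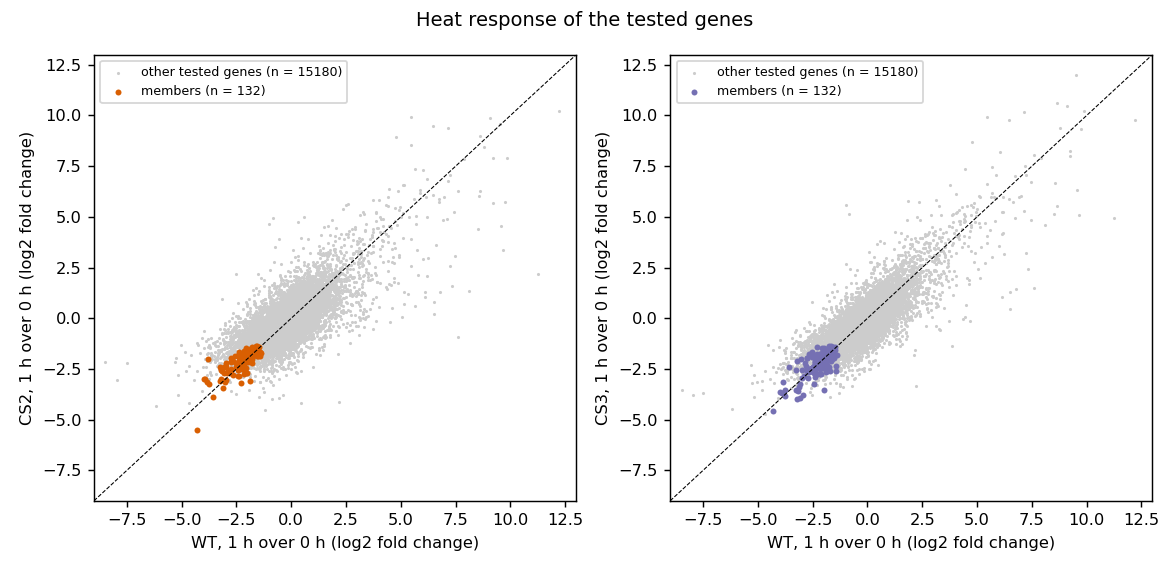
Log2 fold change of 1 h over 0 h in CS2 (left) and CS3 (right) against that in WT, for every tested gene, with the 132 genes in colour and the line of equal response dashed. Chosen for a fall in each genotype and for similar 1 h levels, the coloured points lie along the line. Their medians are -1.92 in CS2, -2.09 in CS3 and -2.14 in WT.

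Within the set the mean fall ran over a wide range. On the scale of the rule it was between 1.5 and 2 in 58 genes, between 2 and 2.5 in 52, between 2.5 and 3 in 17, and above 3 in 5. In 122 of the 132 genes every heated library was below every unheated library, against 10.6% of all tested genes. The required fall and the limit on the 1 h levels largely fixed this. In the 10 others the ranges overlapped, as in Solyc12g100030.2. Its 0 h values were 18.1, 7.03 and 9.94 CPM in CS2, 4.94, 1.37 and 16.7 CPM in CS3 and 24.0, 1.08 and 2.52 CPM in WT, and its 1 h values ran from 0.497 to 2.37 CPM. In CS3 and WT its lowest unheated replicate was within the range of the heated libraries.

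The deepest mean fall was that of Solyc01g067440.4, a gene of 634 bases on the minus strand of chromosome 1 (70660061 to 70660694 of the M82 assembly, like all positions here). It was all but absent after heat, with 0.654, 0 and 0.555 CPM in CS2, 1.04, 0.593 and 0.446 CPM in CS3 and 0, 0.497 and 0.858 CPM in WT at 1 h. At 0 h it had 20.6, 17.4 and 24.8 CPM in CS2, 17.4, 10.6 and 24.3 CPM in CS3 and 10.03, 8.93 and 11.5 CPM in WT. No heated library held more than 2 counts of it, and the 9 heated libraries together held 10 counts against 514 in the 9 unheated ones. It is the only gene of the 132 with 3 or fewer counts in every heated library. How far it fell cannot be stated closely at this depth.

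Of the 4 deepest mean falls, 2 were in genes for secreted proteases. Solyc08g079880.2 and Solyc08g079860.2 lie at the places of p69c-type genes in the RefSeq order. P69 proteins are subtilisin-like serine proteases of the tomato apoplast, some of which accumulate on infection. Solyc08g079880.2 (chromosome 8, 64139896 to 64142160, plus strand) had 6.54, 4.79 and 7.21 CPM in CS2, 3.62, 4.74 and 4.46 CPM in CS3 and 3.04, 4.97 and 6.44 CPM in WT at 1 h. Unheated leaves had 63.6, 55.7 and 60.2 CPM in CS2, 61.6, 58.1 and 66.6 CPM in CS3 and 71.4, 54.7 and 75.6 CPM in WT. The groups were far apart in every genotype, and the mean over all 9 unheated libraries was 12.4-fold that of the heated ones. Its log2 fold change was -3.24 in CS2 (SE 0.199), -3.85 in CS3 (SE 0.220) and -3.77 in WT (SE 0.210).

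Solyc08g079860.2 (chromosome 8, 64119404 to 64121614, plus strand) behaved alike. At 1 h it had 5.23, 3.84 and 8.04 CPM in CS2, 3.62, 4.74 and 2.23 CPM in CS3 and 5.57, 4.47 and 5.58 CPM in WT. At 0 h it had 49.1, 49.97 and 46.4 CPM in CS2, 53.3, 53.6 and 59.9 CPM in CS3 and 41.9, 51.7 and 52.6 CPM in WT. Its replicates at 0 h were among the tightest of the deeply falling genes. The log2 fold change was -2.99 in CS2 (SE 0.210), -4.00 in CS3 (SE 0.239) and -3.21 in WT (SE 0.220).

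The pair belongs to a stretch of chromosome 8 (64043447 to 64147244) that holds 4 of the 132 genes among 16 tested genes. The others are Solyc08g079730.2 and Solyc08g079890.2, whose RefSeq counterparts have no name. Solyc08g079890.2, directly beside Solyc08g079880.2, had between 4.74 and 15.7 CPM at 1 h and between 41.7 and 84.3 CPM at 0 h. Solyc08g079730.2 had between 0.593 and 4.66 CPM at 1 h and between 16.2 and 30.1 CPM at 0 h. Neither gene had a heated library that reached an unheated one.

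The stretch was singled out after its values were seen. Of its 16 tested genes, 11 were lower at an adjusted p under 0.05 (edgeR) in all 3 genotypes, which held for 13.6% of all tested genes. These 11 include the 4 genes chosen for their fall. Between Solyc08g079860.2 and Solyc08g079880.2 lies Solyc08g079870.3, placed at P69B, a protease that inhibitors of Phytophthora infestans bind. It averaged 5.16 CPM in CS2, 1.73 CPM in CS3 and 2.37 CPM in WT at 1 h. Unheated, it averaged 18.2 CPM in CS2, 13.1 CPM in CS3 and 20.6 CPM in WT. Its 1 h level in CS2 kept it out of the 132. Solyc08g079830.4, in the middle of the stretch and placed at CCS, the copper chaperone of superoxide dismutase, changed the other way, with log2 fold changes of 0.88 in CS2, 0.89 in CS3 and 1.16 in WT. The stretch was not lower as a whole.

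**Figure D3:**
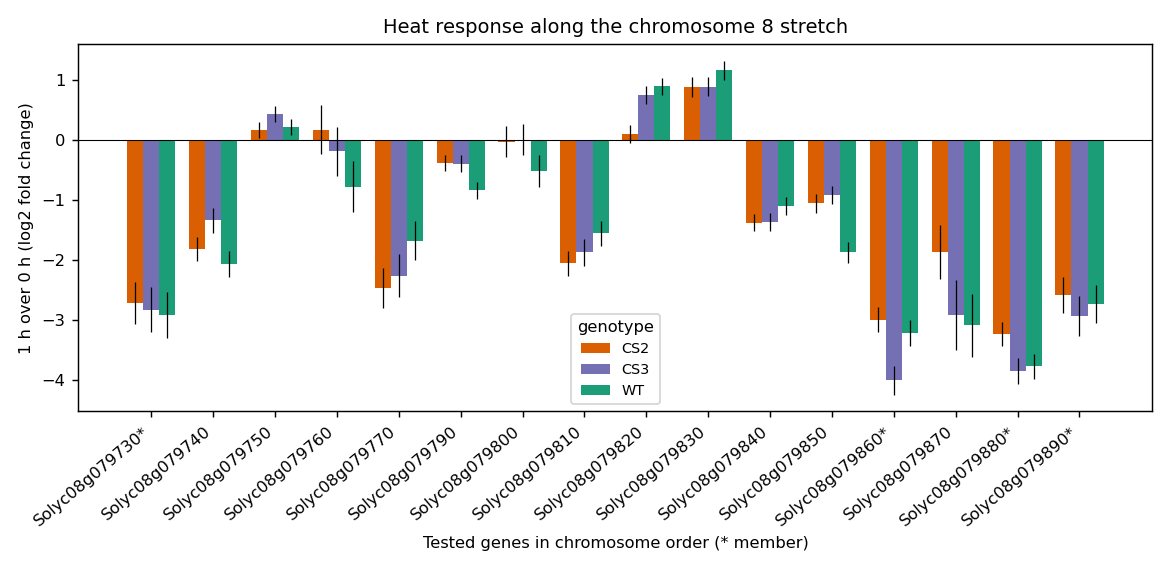
Log2 fold change of 1 h over 0 h in CS2, CS3 and WT (bars, with standard errors from edgeR) for the 16 tested genes of the chromosome 8 stretch in chromosome order; asterisks mark genes of the set. The longest bar is that of Solyc08g079860 in CS3, at -4.00, followed by those of Solyc08g079880 in CS3 and WT, at -3.85 and -3.77. Bars of Solyc08g079750, Solyc08g079820 and Solyc08g079830 point upwards in all 3 genotypes. Solyc08g079760 does so in CS2 alone, and Solyc08g079800 barely so in CS3 alone.

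Of 9 tested genes placed at P69 or SBT genes, a list drawn up after values were known, 5 lie in this stretch and 2 of these were chosen for their fall. Of the 4 outside it, none of which is in the set, 4 were lower in CS2, 4 in CS3 and 3 in WT at an adjusted p under 0.05 (edgeR), where 26.2%, 26.5% and 25.2% of all tested genes were. The exception was Solyc01g087820.2, placed at sbt4b, in WT (log2 fold change -1.58, SE 0.674, edgeR adjusted p = 0.0594). The median log2 fold change of these 4 genes was -1.53 in CS2, -1.60 in CS3 and -1.51 in WT, and of all tested genes 0.00 in each. Solyc03g006970.1, placed at SBT2, averaged 29.7 CPM in CS2, 45.4 CPM in CS3 and 45.8 CPM in WT at 1 h, and 163 CPM in CS2, 165 CPM in CS3 and 162 CPM in WT at 0 h. P69 genes resemble each other closely, so how reads were divided among them, or lost to the mapping quality limit, is uncertain.

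Enzymes that act on cell wall xylan and arabinan formed a second named group. Solyc01g104950.4, placed at LEXYL2 (a beta-xylosidase), was well expressed at both times. At 1 h it had 99.4, 98.8 and 91.2 CPM in CS2, 94.8, 90.7 and 74.5 CPM in CS3 and 76.4, 85.5 and 87.6 CPM in WT. At 0 h it had 264, 264 and 296 CPM in CS2, 274, 341 and 305 CPM in CS3 and 266, 254 and 304 CPM in WT. The unheated level was 3.22-fold the heated one, with no overlap.

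Solyc04g072850.4, placed at Arf/Xyl4 (an alpha-arabinofuranosidase and beta-xylosidase), had 22.9, 29.2 and 33.6 CPM in CS2, 25.9, 23.1 and 30.8 CPM in CS3 and 26.3, 24.8 and 24.5 CPM in WT at 1 h. Its unheated values were 83.0, 81.5 and 78.1 CPM in CS2, 82.7, 111 and 77.6 CPM in CS3 and 78.7, 72.3 and 74.6 CPM in WT. CS3 replicate 2 stood above the 8 other unheated libraries, which were close together. Its chromosome neighbour Solyc04g072860.3, placed at Arf/Xyl3, responded less, with log2 fold changes of -0.57 in CS2, -1.27 in CS3 and -0.58 in WT. That neighbour was called lower in CS3 alone (edgeR adjusted p = 0.00322), not in CS2 (edgeR adjusted p = 0.116) or WT (edgeR adjusted p = 0.113). Besides it and the 2 genes of the set, the tested genes placed at xylosidases or Arf/Xyl genes held only Solyc01g079570.3, placed at ARF/XYL2, with log2 fold changes of -1.62 in CS2, -1.96 in CS3 and -3.20 in WT. Other wall gene families examined did not move as one. Of 5 tested genes placed at xyloglucan hydrolases, 2 were higher and 1 lower in each genotype (adjusted p under 0.05, edgeR). Of 7 placed at expansins, 1 was higher and 3 lower in CS2, 0 and 4 in CS3, and 1 and 4 in WT. Of all 15312 tested genes, 4397 were higher and 4011 lower in CS2, 4086 and 4065 in CS3, and 3701 and 3862 in WT. No gene of either family is in the set. These lists too were made with values known.

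LANCEOLATE is a TCP transcription factor that sets when tomato leaflets mature, and its dominant mutant has simple leaves. Its place in the gene order corresponds to Solyc07g062680.3 (chromosome 7, 65767658 to 65768860, plus strand), found between matched neighbours and not by a clear margin of its own. At 1 h that gene had 10.5, 17.7 and 23.0 CPM in CS2, 20.7, 19.6 and 15.2 CPM in CS3 and 30.4, 11.4 and 24.0 CPM in WT. At 0 h it had 81.97, 86.9 and 88.9 CPM in CS2, 89.1, 129 and 92.8 CPM in CS3 and 92.4, 104 and 98.0 CPM in WT. Its mean over the 9 unheated libraries was 5.004-fold that of the heated ones, although heated replicates scattered widely. Besides this gene, chosen for its fall, the 8 other tested genes placed at TCP genes did not move as one. Of these 8 genes, 2 were higher and 3 lower in CS2 (adjusted p under 0.05, edgeR). In CS3 and in WT, 1 was higher and 4 were lower. Of all 15312 tested genes, 4397 were higher and 4011 lower in CS2, 4086 and 4065 in CS3, and 3701 and 3862 in WT.

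A receptor kinase gene fell more mildly. Solyc02g091840.3 corresponds in order to a RefSeq gene with the synonyms SlmCLV1 and SlpCLV1. CLAVATA1, after which they are named, is a receptor kinase that restrains the shoot meristem in Arabidopsis. The tomato gene had 65.4, 93.5 and 92.4 CPM in CS2, 91.6, 80.0 and 85.3 CPM in CS3 and 101, 71.6 and 110 CPM in WT at 1 h. Unheated libraries held between 235 and 299 CPM. The unheated mean was 3.03-fold the heated one, against a median of 4.36-fold over the set, and its heated and unheated libraries did not overlap.

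The remaining named genes had low levels. Solyc08g080280.3, placed at TRM10/11, is of a family that binds TONNEAU1 and cortical microtubules in Arabidopsis. It had 3.27, 4.31 and 3.61 CPM in CS2, 3.62, 4.15 and 5.80 CPM in CS3 and 3.04, 1.49 and 5.15 CPM in WT at 1 h, and between 13.4 and 24.4 CPM in the unheated libraries. Solyc12g100180.2, placed at ABCG53, a membrane transporter of the ABC class, had between 2.37 and 8.58 CPM at 1 h and between 10.3 and 26.3 CPM at 0 h. Both were below their unheated range in all 9 heated libraries. Of 9 other tested genes placed at TRM genes, 2 were higher and 4 lower in CS2 and in WT (adjusted p under 0.05, edgeR). In CS3, 2 were higher and 3 lower. Of all 15312 tested genes, 4397 were higher in CS2, 4086 in CS3 and 3701 in WT. Of 13 other tested genes placed at ABCG genes, 5 were lower in CS2, 9 in CS3 and 8 in WT (adjusted p under 0.05, edgeR), where 26.2%, 26.5% and 25.2% of all tested genes were lower, and 0 were higher. Both lists were made with values known.

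A further 5 unnamed genes were among the 10 with the largest mean fall. Solyc09g014240.4 had between 0.446 and 3.84 CPM at 1 h and between 14.4 and 32.6 CPM at 0 h. Solyc10g055730.3 had between 0.593 and 5.27 CPM at 1 h and between 14.8 and 45.3 CPM at 0 h. In Solyc06g074390.3, Solyc01g103360.4 and Solyc09g075900.3 no heated library exceeded 4.44 CPM and no unheated library was below 10.9 CPM. None of the 5 genes had overlapping ranges.

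**Figure D4:**
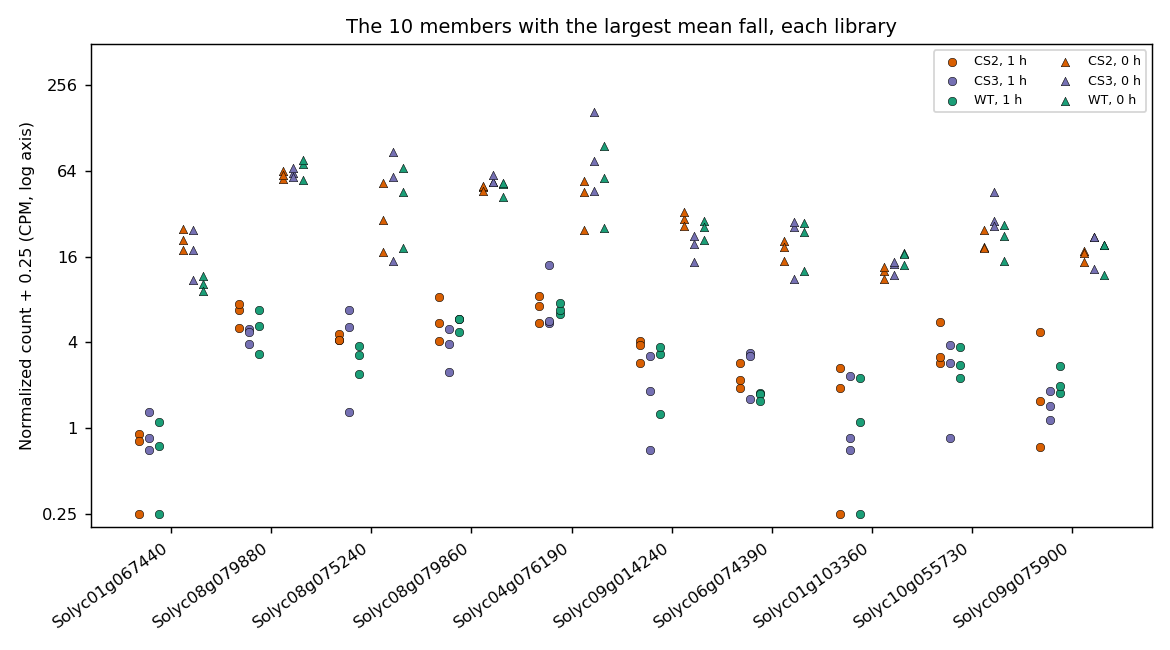
Normalized counts (CPM plus 0.25, log axis) of the 10 genes with the largest mean fall in each of the 18 libraries, heated libraries as circles and unheated ones as triangles, coloured by genotype. Circles lie below triangles in every gene, and unheated values are widely spread in Solyc08g075240 and Solyc04g076190 but tight in Solyc08g079880 and Solyc08g079860.

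Compared per kilobase of gene span, the most expressed genes of the set in unheated leaves were Solyc07g018240.1, at 121 CPM per kilobase, and Solyc06g062950.1, at 119 CPM per kilobase. After heat they averaged 29.6 and 34.6 CPM per kilobase. Solyc07g062680.3, Solyc07g056650.4, Solyc01g104950.4, Solyc02g091840.3 and Solyc03g098060.3 followed, between 61.9 and 79.7 CPM per kilobase at 0 h. The last 3 of the leading 10, Solyc04g076190.1, Solyc06g075220.1 and Solyc05g053400.3, lay between 45.9 and 50.1 CPM per kilobase. The unheated mean was 9.18-fold the heated one in Solyc04g076190.1 and 3.03-fold to 5.004-fold in the 9 others. Spans include introns, and duplicate reads had been removed, which limits high counts on short genes. No gene of the set had more than 0.493 counts per base of its span in any library, and 5 had at least 0.3.

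Across the set the unheated level was moderate. Its median was 28.1 CPM at 0 h, with a median of 5.55 CPM at 1 h, against 43.3 CPM at 0 h and 44.6 CPM at 1 h over all tested genes. The median span was 3358 bases, against 4220 bases over all tested genes. Per kilobase of span the unheated medians were close, 9.49 CPM in the set and 10.5 CPM over all tested genes. Genes ran equally often on either strand, 66 each. All 12 chromosomes held some, from 6 of 989 tested genes on chromosome 11 (0.607%) to 13 of 985 on chromosome 12 (1.32%).

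Few of the genes were close neighbours. With a limit of 50000 bases between them, 9 of the 132 formed 4 groups, and in only 2 cases did no other gene lie between. One of these is the P69 neighbourhood described above, and the other is Solyc01g102390.4 with Solyc01g102400.3 on chromosome 1. Solyc01g102390.4 had between 6.58 and 13.5 CPM at 1 h and between 24.4 and 43.2 CPM at 0 h. Solyc01g102400.3 had between 5.88 and 15.3 CPM at 1 h and between 18.5 and 31.2 CPM at 0 h. Both lie on the plus strand and fell by a like amount, near the lower limit of the rule.

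Responses of single genes were close among genotypes, and the rule itself held the 1 h levels together. The distance between the largest and the smallest of the 3 responses had a median of 0.41 on the log2 scale of the rule, was under 0.5 in 82 genes and reached 1 in 9. Without CS3 replicate 2 at 0 h the median distance was 0.38, with 86 genes under 0.5 and 5 at 1 or more. Without CS2 replicate 3 at 1 h it was 0.43, with 83 genes under 0.5 and 7 at 1 or more. The deepest response was that of CS2 in 33 genes, of CS3 in 56 and of WT in 43. These counts were 32, 54 and 46 without CS3 replicate 2 at 0 h, and 48, 47 and 37 without CS2 replicate 3 at 1 h, so no genotype led under both. The genes with the largest distance were Solyc07g063080.4, with -1.77 in CS2, -3.16 in CS3 and -1.82 in WT, and Solyc06g053870.4, with -1.54 in CS2, -2.89 in CS3 and -2.73 in WT. Without CS3 replicate 2 at 0 h the CS3 response was -2.49 in Solyc07g063080.4 and -1.93 in Solyc06g053870.4, where that of WT was then the deepest. Solyc07g063080.4 had 13.5, 10.4 and 6.90 CPM in CS2, 18.97, 40.2 and 8.21 CPM in CS3 and 8.20, 20.03 and 7.56 CPM in WT at 0 h, where CS3 replicate 2 was the highest of the 9 unheated libraries. Solyc06g053870.4 had 8.40, 2.08 and 1.38 CPM in CS2, 8.84, 26.1 and 3.04 CPM in CS3 and 2.13, 15.4 and 10.1 CPM in WT, a spread among replicates larger than that among genotypes.

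At 1 h the lines lay near WT, as chosen. Against WT the set had a median log2 fold change of 0.19 for CS2, or 0.05 without CS2 replicate 3, and of 0.01 for CS3. As the rule left only genes near WT, 0 passed an adjusted p of 0.05 for CS2 and 1 for CS3 (edgeR), where 33.1% and 24.3% of all tested genes passed. Solyc06g062950.1, among the most expressed of the set, had 69.9, 67.6 and 60.7 CPM in CS3 and 73.9, 86.0 and 98.3 CPM in WT. Its CS3 libraries lay below all WT libraries, while the 3 CS2 libraries, at 88.2, 81.98 and 98.5 CPM, overlapped with WT.

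The rule did not compare genotypes at 0 h, but it used the unheated levels through the fall. With the 1 h levels held together, it left out genes that were low at 0 h in a single genotype. The differences at 0 h are therefore limited by the choice and say nothing of likeness between genotypes. No gene of the set differed in CS2 against WT, in CS3 against WT or in CS2 against CS3 at an adjusted p under 0.05 (edgeR), where 0.0522%, 0.229% and 0.0261% of all tested genes did. DESeq2 also called 0 of the 132 genes in each comparison. At an unadjusted p under 0.05 edgeR gave 7 genes for CS2 against WT, 21 for CS3 against WT and 19 for CS2 against CS3, which are 5.30%, 15.9% and 14.4% of the set beside 3.51%, 12.9% and 11.1% of all tested genes. With DESeq2 these were 6, 17 and 17 genes.

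The counts at an unadjusted p leaned on single libraries. Without CS3 replicate 2 at 0 h they were 11 for CS3 against WT and 5 for CS2 against CS3, and without CS3 replicate 3 they were 31 and 36. For CS3 against WT, leaving out WT replicate 1 gave 12 genes and WT replicate 3 gave 13. For CS2 against CS3, leaving out CS2 replicate 2 or replicate 3 gave 11 genes each. No gene passed the adjusted threshold under any of these.

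The smallest p in CS2 against WT was that of Solyc01g067440.4, the gene with the deepest fall, whose 0 h values are given above. Its 3 CS2 values, from 17.4 to 24.8 CPM, lay above its 3 WT values, from 8.93 to 11.5 CPM, with a log2 fold change of 1.05 (SE 0.317, edgeR adjusted p = 0.852). In CS3 against WT it was Solyc12g088010.2, with 8.32, 4.12 and 6.998 CPM in CS3 and 20.4, 15.4 and 10.8 CPM in WT (log2 fold change -1.24, SE 0.366, edgeR adjusted p = 0.183). In CS2 against CS3 it was Solyc02g086452.1, with 227, 233 and 209 CPM in the CS2 libraries against 158, 91.7 and 166 CPM in CS3 (log2 fold change 0.69, SE 0.202, edgeR adjusted p = 0.422). In each case the libraries of the genotypes did not overlap, but the difference did not pass over all tested genes. These genes were picked for their p.

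**Figure D5:**
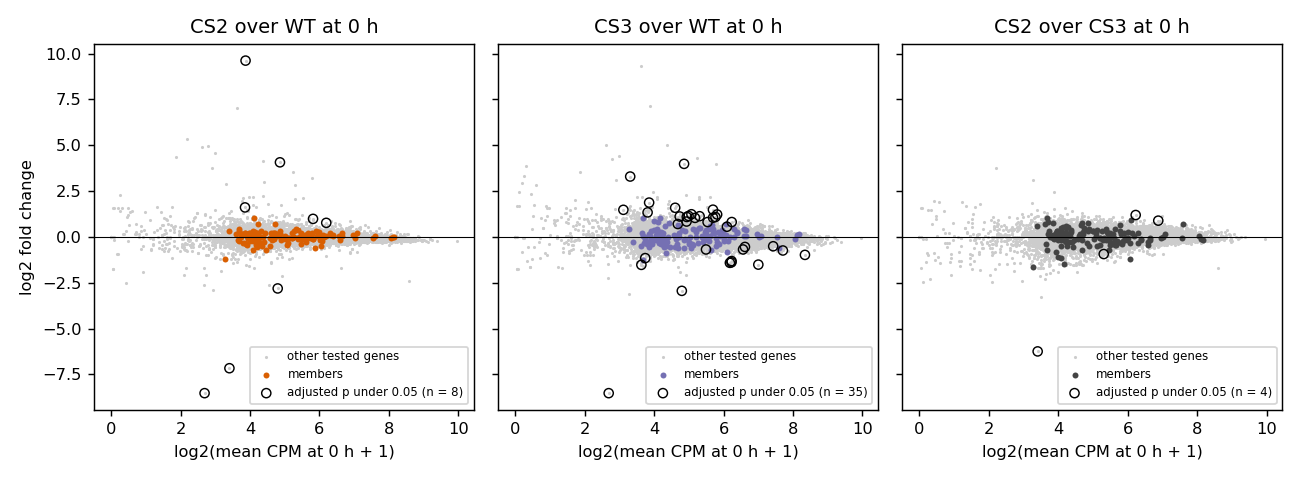
Log2 fold change between genotypes in unheated leaves against the mean level at 0 h, for CS2 over WT, CS3 over WT and CS2 over CS3. The 132 genes are coloured and open circles mark genes at an adjusted p under 0.05 (8, 35 and 4 genes); none of the circles is a gene of the set.

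Replicates scattered more in this set, whose CPM values were lower, than in the tested genes at large. The SD of log2(CPM + 1) between unheated replicates had a median of 0.33 in the set and 0.21 over all tested genes, and between heated replicates 0.38 and 0.20. Of the 10 genes with the largest unheated SD, 8 had their highest value in CS3 replicate 2, which is the library that stood apart. One was Solyc04g076190.1, also among the deepest falls, with 54.5, 45.5 and 24.6 CPM in CS2, 74.6, 167 and 46.2 CPM in CS3 and 25.2, 95.3 and 57.3 CPM in WT at 0 h. At 1 h it ran from 5.18 to 13.6 CPM, again highest in a library labelled CS3 replicate 2. Solyc08g075240.3 had 52.2, 28.9 and 17.1 CPM in CS2, 58.2, 86.2 and 14.6 CPM in CS3 and 18.2, 67.1 and 45.0 CPM in WT at 0 h, with 1.04 to 6.52 CPM at 1 h. Over the whole set, CS3 replicate 2 held the highest unheated value of 41 genes and the lowest of 39, near its shares of all tested genes given above. Among the heated libraries, CS2 replicate 3 was highest in 29 genes of the set and lowest in 0, against 14.2% and 10.2% of all tested genes.

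The list has soft edges. Just inside the limit of the fall lay Solyc09g090340.3, with its weakest response at -1.501, and Solyc08g074895.1, at -1.502, and just outside lay Solyc02g094050.4, at -1.498, and Solyc10g078550.4, at -1.490. For the 1 h difference from WT, Solyc12g088170.2 at 0.499963 and Solyc10g055810.2 at 0.494 were inside, and Solyc02g069930.1 at 0.501 and Solyc02g089130.4 at 0.503 were outside. With TMM-scaled values in the rule 96 genes were chosen, 95 of them among the 132. When each of the 18 libraries was left out in turn, between 116 and 157 genes were chosen, and 34 of the 132 were chosen every time.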

How the data were processed

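RNA-seq was performed on 18 leaf libraries (directional, 1 × 75 bp). The deposited table holds raw counts per gene, made by the authors with featureCounts 2.0.0 over whole gene spans of the M82 tomato genome, by strand. The counted reads had a mapping quality of at least 30, and PCR duplicates had been removed. Multiply mapped and overlapping reads were counted only among the reads left after these steps. The submitters' processing notes list Trimmomatic 0.38, Bowtie2 2.3.5 and SAMtools 1.9, whereas the study's methods name STAR. Titles give 3 biological replicates per condition and the table holds 3 columns for each, whereas the study's methods state 2; the labels' line 1 and line 2 are not tied to the CS2 and CS3 of the table by any source used here, so lines were read from column names.

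The filter was 50 counts in 2 or more libraries, and the genes that passed were fitted with edgeR 4.0.16 (R 4.3.3; TMM, quasi-likelihood, 6 conditions, Benjamini-Hochberg over all 15312 genes, threshold 0.05); DESeq2 1.42.0 was an alternative. Tested on simulated data for CS2 against WT at 0 h (15312 genes), the fit recovered 87 of 100 genes changed 2-fold and 98 of 100 changed 4-fold, with 9 false calls. Changes were placed only in genes above a minimum WT level at 0 h, and no simulated library stood apart from its replicates. These rates therefore need not hold for the genes of the set, whose replicates scattered more. Replicates differed by more than sampling noise (chi-square per degree of freedom 1.58 to 10.9). The study describes each biological replicate as a random pool of seedlings; since its replicate number differs from that of the table, p-values measure the spread between these libraries, part of which may be technical. Counting error alone is larger at 1 h, where library totals were mostly smaller.

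The genes and lists were chosen with earlier results of these data known. Named were the 10 largest mean falls, the 10 highest levels per length, the 2 with the most different responses, genes at the thresholds and those with a name by gene order (distances within 300 bases in windows of 100000 bases on each side); other names were chosen after their values were seen. Functional classes and cell type markers planned by gene description were not used here, since no descriptions matched the identifiers; families by RefSeq symbol replaced them.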

Additional observations from a re-analysis of the deposited data

Results flagged for a closer look

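Single libraries far from the others were looked for among the 6 libraries of the knock-down lines at each time, by the gap to the next value over the whole range, in 52 sets of values of the named genes and of the set as a whole. There were 11 such cases. The nominal rate of about 1 in 20 holds for independent, normally spread values of a single population. Here both lines were pooled and 7 of the cases come from the same library, so no rate by chance is given. CS3 replicate 2 at 0 h was above the 5 other unheated libraries of the lines in 7 genes: Solyc04g076190.1 (167 CPM, next 74.6), Solyc10g055730.3 (45.3 CPM, next 28.1), Solyc07g062680.3 (129 CPM, next 92.8), Solyc03g098060.3 (59.1 CPM, next 38.2), Solyc07g063080.4 (40.2 CPM, next 18.97), Solyc06g053870.4 (26.1 CPM, next 8.84) and Solyc04g072850.4 (111 CPM, next 83.0). At 1 h, Solyc04g076190.1 was high in CS3 replicate 2 (13.6 CPM, next 8.15), Solyc09g075900.3 in CS2 replicate 3 (4.44 CPM, next 1.55) and Solyc05g053400.3 in CS2 replicate 1 (31.4 CPM, next 15.5), while Solyc01g104950.4 was low in CS3 replicate 3 (74.5 CPM, next 90.7). In each of the 7 genes both other unheated CS3 libraries were also above all 9 heated libraries. The part of library quality in these values was not tested.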

How the results depend on the processing

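Counts of 0 called genes between genotypes at 0 h were unchanged by DESeq2, library-size or upper-quartile scaling, no filter, filterByExpr, a fit of only the conditions compared and each library left out. Same-numbered replicates were not shown to be paired (correlations of their deviations from -0.399 to 0.411); with a replicate block the calls stayed at 0 and the median responses were -1.92 in CS2, -2.06 in CS3 and -2.13 in WT. The number of genes chosen was 451 with a fall of at least 1 and 41 with a fall of at least 2. It was 82 with a pseudocount of 5, of which only 53 were among the 132, and 116 to 157 with a library left out. The required fall and the pseudocount are part of the rule itself, and a larger pseudocount makes log2 differences smaller by definition. Upper-quartile scaling gave 122, a pseudocount of 0.5 gave 136 and no filter 173. By library size only, the median response was -2.26 in CS3 and -2.27 in WT, with the median of all genes lower too. Leaving out libraries gave medians of -2.14 to -1.92 in CS2, -2.19 to -2.06 in CS3 and -2.20 to -2.05 in WT. Low counts at 1 h limit how closely single falls can be stated: only 52 of the 132 genes had at least 10 counts in every heated library, and 6 had 0 in at least 1.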
